A study of Mus musculus with 2 samples.

Results

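The subunits of the respiratory chain and of ATP synthase that the nucleus encodes were compared between splenic monocytes of mice with a 5/6 nephrectomy (5/6Nx) and of sham-operated mice. Members were the genes whose name on the array starts with Ndufa, Ndufb, Ndufc, Ndufs, Ndufv, Uqcr, Cox4, Cox5, Cox6, Cox7, Cox8 or Atp5. This gave 88 genes, read by 135 of the 56605 probes on the array. Of these genes 77 encode subunits, 36 of complex I, 8 of complex III, 18 of complex IV and 15 of complex V. The others were 9 assembly factors, the supercomplex factor Cox7a2l and the pseudogene Atp5c1-ps. The 5/6Nx group had lost 5/6 of its kidney mass, a surgical model of chronic kidney disease, and the sham group had the operation without that loss. Both groups were ICR mice, an outbred stock, without a transgene in their labels, and the age of the animals is not among them. Spleen cells were taken 8 weeks after the operation, stained for CD11b and Ly6C and collected by flow cytometry. Each group is 1 Agilent array hybridised with Cy3-labelled RNA, and the sources used here state neither the number of mice behind it nor whether mice were pooled.

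Complex I takes electrons from NADH and passes them to ubiquinone, complex III passes them from ubiquinol to cytochrome c, and complex IV reduces oxygen with them. The 3 complexes pump protons out of the matrix, and complex V, the ATP synthase, makes ATP as the protons return. Complexes I, III, IV and V are built from subunits of both genomes: the mitochondrial DNA encodes membrane-embedded core proteins, and the nucleus encodes the rest, together with the assembly factors. In monocytes and macrophages the use of this pathway relative to glycolysis is known to differ between activation states.

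Values are log2 of the processed spot intensity minus the 75th percentile of the array, and a difference is 5/6Nx minus sham on this log2 scale. The 75th percentile was an intensity of 544.5 on the 5/6Nx array and 439.2 on the sham array. The intensities printed below are those before this scaling, and folds are after it. A probe counted as measured when both arrays had it well above background by the scanner software's call, which held for 125 of the 135 probes, and a gene took the value of its brightest measured probe. With n = 1 array per group there was no replicate error, nothing was tested across animals, and the number of arrays limits the precision. The only errors at hand are technical. The software's own error of a difference had a median of 0.20 in log2 units over the subunits. The SD between the spots of one probe was 0.06 for a difference, over 283 probes with at least 8 usable spots.

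Well above background were 67.0% of the non-control spots on the 5/6Nx array and 63.0% of those on the sham array. Both arrays shared a slide and a scan. Of the 7 monocyte markers all were measured on both arrays, with a median difference of -0.26. Of the 7, 4 were below 0, with Ccr2 lowest at -0.89, and 3 above, with Ly6c1 highest at 1.98. They included Itgam, which encodes CD11b, at an intensity of 31995 on the 5/6Nx array and 33016 on the sham array. After scaling Itgam differed by -0.36, and its other probe by -1.18. Ly6c1, the other sort antigen, read 210831 on the 5/6Nx array and 43112 on the sham array. Markers of other cells differed as well. Of the 8 T cell markers 7 were measured on both arrays and 6 of these were higher in 5/6Nx by at least 2-fold. Of all genes measured on both arrays 12.2% were. The summed intensity of the 8 T cell markers was 29465 on the 5/6Nx array and 1273 on the sham array. For 6 NK cell markers, of which 4 had a signal above background in 5/6Nx alone, the sum was 12908 on the 5/6Nx array and 188.5 on the sham array. For 4 platelet markers it was 13575 on the 5/6Nx array and 179440 on the sham array, mostly from Pf4, at 10232 on the 5/6Nx array and 163186 on the sham array. Ppbp differed by -2.62 and Gp9 by -0.35, while Itga2b had a signal above background in 5/6Nx alone. Of the 7 neutrophil markers 5 were measured and 3 of these were at least 2-fold higher, Lcn2 at 7.31, Ly6g at 4.53 and Camp at 2.18. S100a9 differed by 0.51 and S100a8 by -0.55, and Ngp and Ltf were not above background on either array. The sum was 15184 on the 5/6Nx array, mostly from Lcn2 at 9760. On the sham array it was 4567, mostly from S100a8 at 4172. Of 5 red pulp macrophage markers Spic was higher by 5.53, Vcam1 had a signal in 5/6Nx alone and Cd163 was not above background on either array. Slc40a1 was lower, at -2.58, and its other probe differed by -0.21. The sum was 51572 on the 5/6Nx array and 31725 on the sham array, mostly from Hmox1, at 45438 and 30543. The 2 probes of Hmox1 differed by 0.26 and -2.82. The sum of 5 conventional dendritic cell markers was 1278 on the 5/6Nx array and 118.8 on the sham array, with Batf3 at 4.28. That of 5 B cell markers was 1507 on the 5/6Nx array and 505 on the sham array, with Cd79b at 1.92. Of 5 erythroid markers Hba-a1 alone was measured on both arrays, at 2.70. Klf1 had a signal above background in sham alone, at 18.1, and the 3 others on neither array. The sum was 1808 on the 5/6Nx array and 250.7 on the sham array, mostly from Hba-a1, at 1790 and 223.1. The part of these cells in the results below was not tested. In these bulk samples fewer cells of a type and less RNA per cell cannot be told apart.

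The nuclear-encoded subunits lay close together. The 73 subunits measured on both arrays had a median difference of -0.10, with quartiles of -0.31 and 0.11, and 64 of them (87.7%) were within 1.5-fold. The median of all 15714 named genes measured on both arrays was -0.12, with quartiles of -0.55 and 0.43, and 56.0% of them were within 1.5-fold. None of the 73 was at least 2-fold higher, where 12.2% of all measured genes were. Only Cox7a1 and Cox6b2 were at least 2-fold lower, where 11% of all genes were, so that 2 of 73 were 2-fold apart against a background of 23.2%. At least 1.5-fold higher were Ndufs4 and Atp5g1, where 20.7% of all genes were. At least 1.5-fold lower were 7 subunits, Cox7a1, Cox6b2, Uqcr11, Ndufa4, Ndufv3, Ndufs8 and Uqcrh, where 23.2% of all genes were. In either direction 44% of all genes were at least 1.5-fold apart.

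Of the 73 subunits 69 were brighter than the median measured gene. Compared with all measured genes, bright genes were less often apart in the higher direction and slightly more often in the lower one. Among the 7857 genes brighter than the median measured gene, 20.6% were at least 2-fold apart, 9.01% higher and 11.6% lower. At least 1.5-fold apart were 38.3% of them, 13.8% higher and 24.5% lower, and 61.7% were within 1.5-fold. Without the 4 measured tissue-restricted isoforms, 62 of 69 subunits (89.9%) were within 1.5-fold. Their differences had an SD of 0.36, against a median software error of 0.20. This error was 0.20 to 0.21 for each of the 73 subunits, so it works as nearly the same cutoff for all of them. Of the 73 subunits 35 lay within 1 such error of the median subunit and 19 beyond 2 errors, 10 of them higher and 9 lower. The share of all measured genes beyond the same cutoff was not counted.

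The sign of the subunit median depended on the scaling between the arrays. It was -0.25 with scaling on the array median, and above 0 with quantile normalization (0.07), loess normalization (0.19) and scaling on the spike-ins (0.26). Over all measured genes the median moved with the scaling as well, between -0.27 and 0.24. Relative to that median the subunits stood at 0.02 with the 75th percentile and between -0.03 and 0.18 over the 13 alternatives. Scaling on the array median or the spike-ins shifts all genes alike and cannot change this distance or the spread. The narrow spread remained: of 69 to 77 subunits, 58 to 65 lay within 1.5-fold of the median subunit over the alternatives that give 1 value per gene, and 62 of 73 did so with the main scaling.

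**Figure D1:**
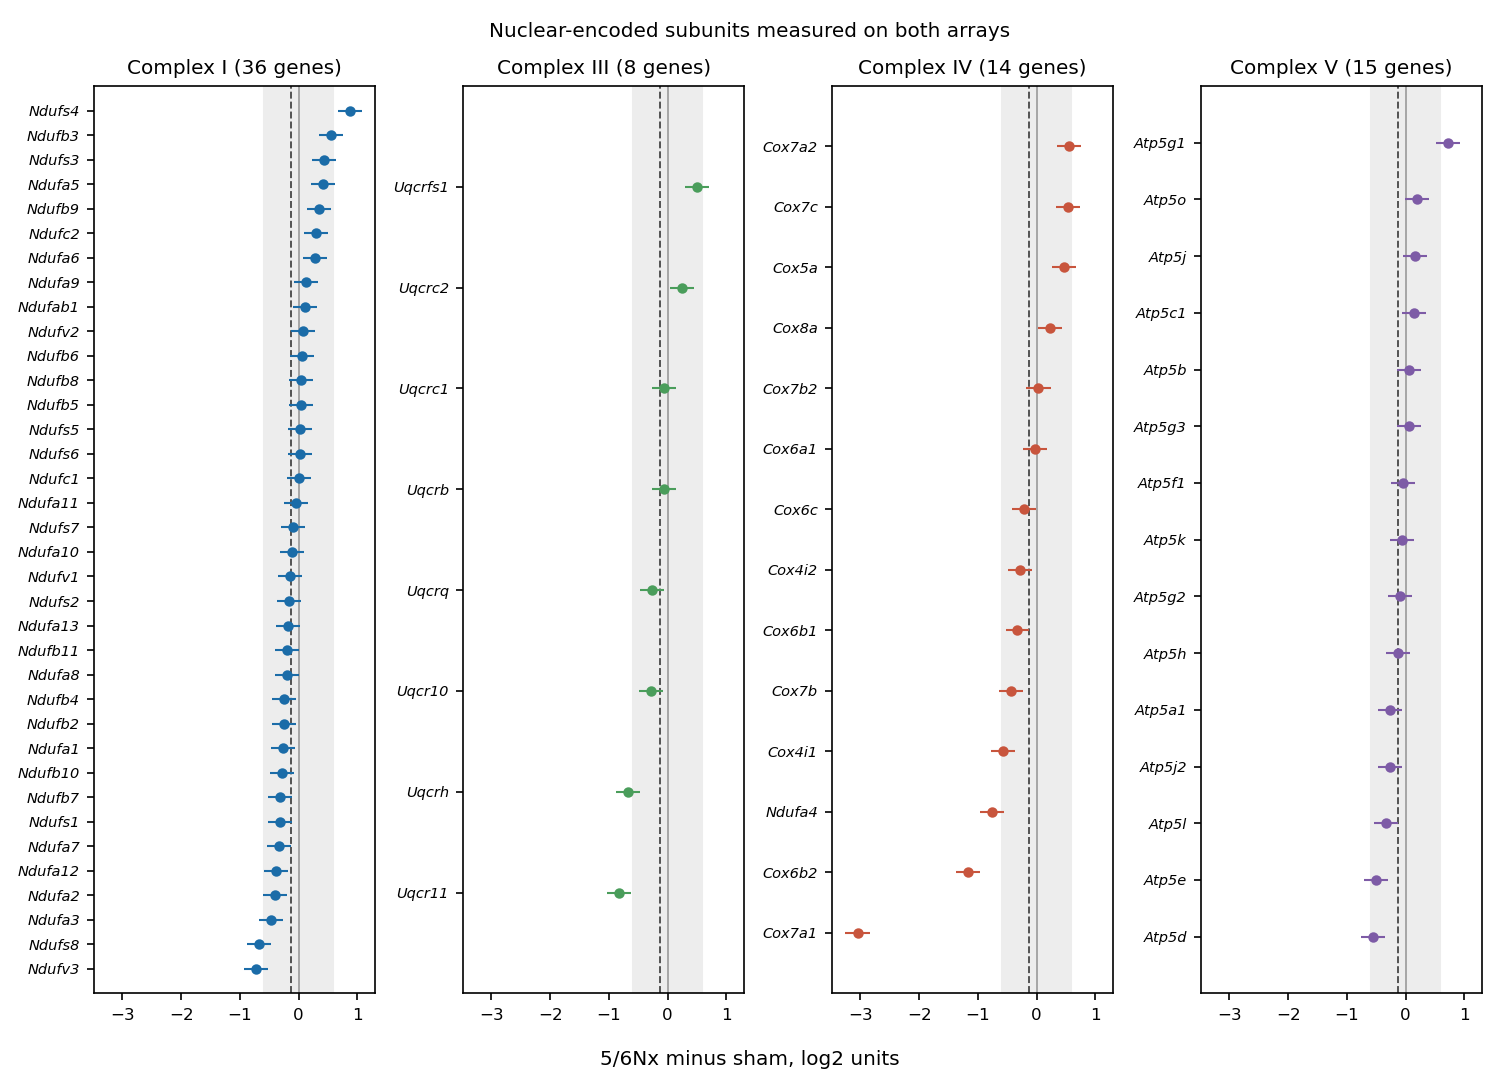
Difference between the 5/6Nx and the sham array, in log2 units on the horizontal axis, for the 73 nuclear-encoded subunits measured on both arrays, by complex. Points are genes, bars the scanner software's error of a difference, the grey band marks less than 1.5-fold, and the dashed line is the median of all measured genes at -0.12. Apart from Cox7a1 at -3.05 and Cox6b2 at -1.16, the points lie between -0.82 and 0.88.

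Complex I had all 36 subunits measured, and its median difference was -0.10. It held 33 subunits within 1.5-fold. The subunit with the highest difference was Ndufs4, an accessory subunit added late in assembly and mutated in human Leigh syndrome. Its intensity was 6291 on the 5/6Nx array and 2755 on the sham array, a difference of 0.88 or 1.84-fold. It is read by 1 probe, on chromosome 13 (115078980 to 115079039, mm9). The difference was above 0 under all 5 other scalings and background corrections, from 0.73 to 1.25.

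The probe of Ndufs4 is shown because this gene had the highest difference among the subunits, and that of Cox7a1 because it had the lowest. Both are printed 5′ to 3′ as deposited, and the letters of the Cox7a1 probe are spread over 612 bases of chromosome 7 (30970337 to 30970948, mm9).
Ndufs4 probe: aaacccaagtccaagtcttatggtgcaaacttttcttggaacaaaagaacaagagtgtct
Cox7a1 probe: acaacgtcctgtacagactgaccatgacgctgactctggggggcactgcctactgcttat

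Next in complex I was Ndufb3, an accessory subunit of the membrane arm, at 9216 on the 5/6Nx array and 5075 on the sham array, a difference of 0.55. At the other end stood Ndufv3, an accessory subunit beside the flavoprotein, at 9796 on the 5/6Nx array and 13058 on the sham array, a difference of -0.72. Ndufs8, a core subunit that holds iron-sulphur clusters, read 5028 on the 5/6Nx array and 6497 on the sham array, a difference of -0.68. Both stayed below 0 under all 5 scalings and background corrections, up to -0.36 for Ndufv3 and -0.31 for Ndufs8. The 7 catalytic core subunits, which carry the flavin and the iron-sulphur clusters, ran from -0.68 to 0.43, and Ndufs3 was at the top of that range. The median of the core was -0.14 and that of the 29 accessory subunits -0.04, and both turned above 0 with spike-in scaling (0.22 and 0.33). The range of the core subunits lay inside that of the accessory ones, from -0.72 to 0.88.

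Complex III had all 8 subunits of the Uqcr prefix measured, with a median difference of -0.17. The Rieske protein Uqcrfs1, which carries electrons to cytochrome c1, read 5439 on the 5/6Nx array and 3085 on the sham array, a difference of 0.51, and its other probe differed by 0.77. The core protein Uqcrc2 differed by 0.24 and its partner Uqcrc1 by -0.06. These 3 larger subunits had a median of 0.24. The 5 small subunits were all below 0, from -0.82 to -0.07, with a median of -0.28. Uqcr11 read 8400 on the 5/6Nx array and 11952 on the sham array, a difference of -0.82 or 1.76-fold lower. Uqcrh, the hinge protein that aids the contact with cytochrome c, read 17821 on the 5/6Nx array and 23001 on the sham array, a difference of -0.68 or 1.60-fold lower. Uqcr10 differed by -0.28, Uqcrq by -0.26 and Uqcrb by -0.07. The signs of Uqcr11, Uqcrh, Uqcrfs1 and Uqcrc2 held under all 5 scalings and background corrections. Those of Uqcr10, Uqcrq and Uqcrb did not, and the median of the small subunits reached 0.08.

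Complex IV had the widest spread, with a median of -0.25 over 14 measured subunits and quartiles of -0.53 and 0.18. Several of its subunits have paired isoforms, of which one form is found in most tissues and the other in few. Without the tissue-restricted forms the quartiles lay no closer together, at -0.41 and 0.41. The 10 ubiquitous subunits ran from -0.76 to 0.55, with a median of -0.11 that was 0.25 with spike-in scaling. Among them 9 were within 1.5-fold. Cox7a2, the widespread form of subunit 7a, read 18788 on the 5/6Nx array and 10383 on the sham array, a difference of 0.55. Cox7c, a small membrane subunit, read 6250 on the 5/6Nx array and 3466 on the sham array, a difference of 0.54. Cox5a, a matrix-side subunit, differed by 0.47 and Cox8a by 0.24. These 4 stayed above 0 under all 5 scalings and background corrections.

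Lower among the ubiquitous subunits was Ndufa4, first assigned to complex I and now placed in complex IV. It read 4384 on the 5/6Nx array and 5973 on the sham array, a difference of -0.76 or 1.69-fold lower. Cox4i1, the widespread form of the largest nuclear-encoded subunit, differed by -0.57, Cox7b by -0.44 and Cox6b1 by -0.32. Cox6a1, the widespread form of subunit 6a, read 71316 on the 5/6Nx array and 58353 on the sham array, a difference of -0.02, and Cox6c differed by -0.21. Ndufa4, Cox4i1 and Cox7b stayed below 0 under all 5 scalings and background corrections, whereas Cox6b1, Cox6a1 and Cox6c took the other sign in at least 1 of them.

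The 8 tissue-restricted isoforms held the extremes of all 77 subunits in both directions, by value or by bound. Cox7a1, the form of heart and skeletal muscle, read 109 on the 5/6Nx array and 727 on the sham array, a difference of -3.05 or 8.28-fold lower. With the normexp background correction the difference was -2.40. Its widespread partner Cox7a2 stood at 0.55. Cox6b2, known from testis, read 130 on the 5/6Nx array and 234 on the sham array, a difference of -1.16 or 2.24-fold lower. It was no longer 2-fold apart with normexp (-0.87) or with spike-in scaling (-0.80). Its partner Cox6b1 differed by -0.32.

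Cox6a2, the heart and muscle form of subunit 6a, went the other way. Its probe on chromosome 7 (135349160 to 135349219, mm9) read 538 on the 5/6Nx array and was not well above background on the sham array, at 13.1. That is higher in 5/6Nx by 33.1-fold with the sham value at its own reading, a value and no lower bound. The software error of this difference was 0.38 in log2 units. Ndufa4l2, a relative of Ndufa4 that hypoxia induces, read 40.1 on the 5/6Nx array and 3.13 on the sham array, where it was not well above background. That is higher by at least 2.48-fold, with the sham value raised to the lowest signal well above background on that array, 13.0. A second Ndufa4l2 probe was not well above background on either array. Of the remaining isoforms Cox4i2, known from lung, differed by -0.29, with readings of 161 and 158 before scaling on the 5/6Nx and the sham array. Cox7b2 differed by 0.03. Cox8b and Cox8c were not well above background on either array. Cox7a1 and Cox6a2, both known as muscle forms, lay on opposite sides.

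Plasmacytoid dendritic cell markers, listed after values had been seen, went both ways beside the Cox6a2 result. Of 7 such markers 1 was at least 2-fold higher, Bst2, which interferon also induces, beside 12.2% of all measured genes. Ly6d had a signal above background in 5/6Nx alone. The summed intensity of the 7 was 154542 on the 5/6Nx array and 108305 on the sham array. Siglech, a defining marker, read 109449 on the 5/6Nx array and 101444 on the sham array, a difference of -0.20. The part of these cells in the Cox6a2 result was not tested.

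**Figure D2:**
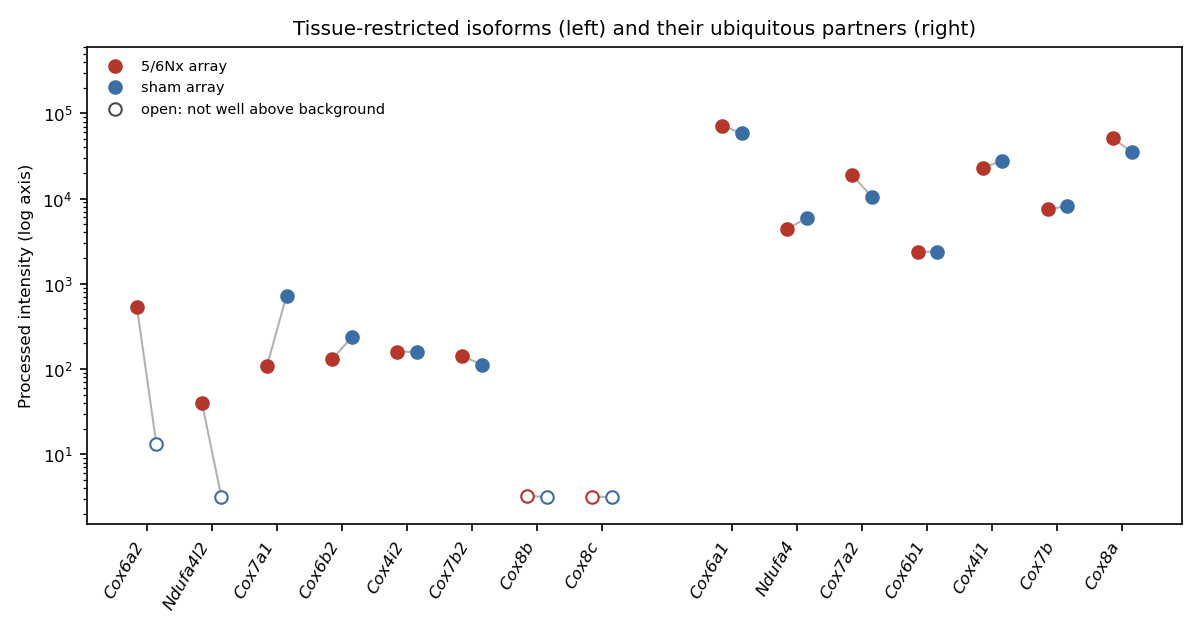
Processed intensity before scaling between arrays, on a log axis, of the 8 tissue-restricted isoforms (left) and their 7 ubiquitous partners (right), with the 5/6Nx array left of the sham array for each gene. Open points were not well above background: Cox6a2 and Ndufa4l2 on the sham array, and Cox8b and Cox8c on both arrays. Cox7a1 stood at 109 on the 5/6Nx array and 727 on the sham array, while the points of each ubiquitous partner stayed within 1.5-fold after scaling, apart from Ndufa4.

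Complex V had all 15 subunits measured and a median of -0.06, which was 0.31 with spike-in scaling. Of these, 14 were within 1.5-fold. In the F1 head, where ATP is made, the catalytic subunit Atp5b read 37896 on the 5/6Nx array and 29400 on the sham array, a difference of 0.06, and the central stalk subunit Atp5c1 differed by 0.15. Atp5d and Atp5e, the delta and epsilon subunits at the foot of the central stalk, differed by -0.55 and -0.51 and stayed below 0 under all 5 scalings and background corrections. The 4 subunits of the peripheral stalk, which holds the head still, ran from -0.13 to 0.19, with Atp5o at the top and Atp5j next at 0.16. Membrane subunits e, f and g, encoded by Atp5k, Atp5j2 and Atp5l, ran from -0.33 to -0.06.

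The c ring, the rotor that protons turn, is encoded by Atp5g1, Atp5g2 and Atp5g3, which make the same mature protein. Atp5g2 was printed 10 times on each array and shows the spread between spots. It averaged 18966 ± 575 on the 5/6Nx array and 16420 ± 633 on the sham array, a difference of -0.10 ± 0.04 (SD over n = 10 spots, which are no biological replicates). After scaling, all 10 spot differences were below 0, between -0.20 and -0.02. Atp5g3 differed by 0.05.

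Atp5g1 gave different answers by probe. Its brightest probe, on chromosome 11 (95930317 to 95930376, mm9), read 27018 on the 5/6Nx array and 13148 on the sham array, a difference of 0.73 or 1.66-fold higher. The second probe (95934315 to 95934374) read 13377 on the 5/6Nx array and 13486 on the sham array, a difference of -0.32. The other (95934924 to 95934983) read 3438 on the 5/6Nx array and 3481 on the sham array, a difference of -0.33. The 2 probes that lie close together thus differed from the brightest one in sign. The brightest lies 3939 bases from the nearest other probe of the gene, while the RefSeq gene is 2902 bases long in GRCm38.p6. Without this probe the value of Atp5g1 turned to -0.32, and no subunit of complex V was 1.5-fold apart.

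The first 30 letters of the brightest Atp5g1 probe and the whole probe at 95934924 are shown because the direction of the gene turns on them. The capitals mark 17 letters found in the B2 family of short interspersed repeats, which is spread over the mouse genome.
Atp5g1 brightest probe, first 30 letters: gggctggcgagttGGCTCAGTGGTTAAGAG
Atp5g1 probe at 95934924: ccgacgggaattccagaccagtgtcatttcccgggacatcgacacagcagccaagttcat

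Of all probes on the array 3 hold these 17 letters in this orientation, the Atp5g1 probe among them. That probe prompted the search. The 2 others were also above 0, as were 13777 of all 33426 measured probes. Whether repeat transcripts bind this probe was not tested.

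Among the subunits 28 had several measured probes, and in 8 of them the probes differed in sign. In 3 of these 8, Atp5g1, Ndufs3 and Atp5f1, one of the probes was at least 1.5-fold apart. Ndufs3, a core subunit of complex I, read 11551 on the 5/6Nx array and 6909 on the sham array by its brightest probe, a difference of 0.43. Its other probe was dim, at 49.0 on the 5/6Nx array and 61.2 on the sham array, and differed by -0.63. Atp5f1, subunit b of the peripheral stalk, differed by -0.04 and -0.02 by its 2 bright probes, and by 0.70 by a dim one at 73.4 on the 5/6Nx array and 36.5 on the sham array. In Ndufs3 and Atp5f1 the deviating probe was the dim one, and in Atp5g1 the brightest.

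**Figure D3:**
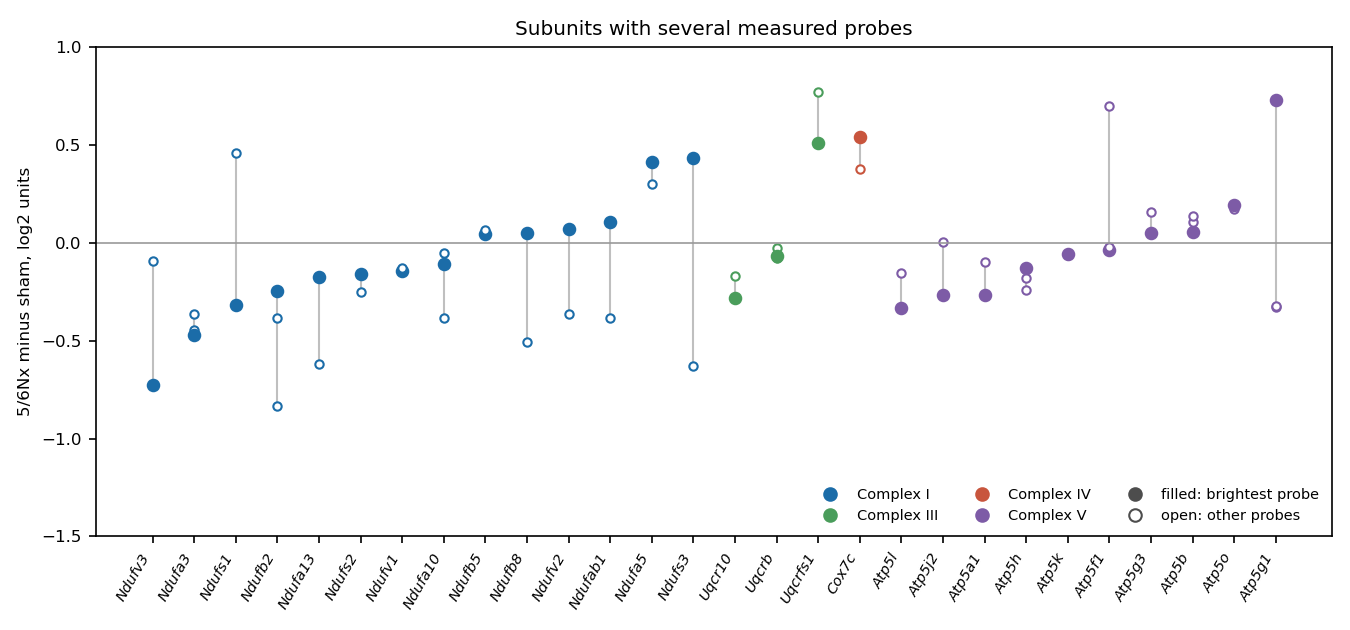
Difference between the 5/6Nx and the sham array, in log2 units on the vertical axis, for each measured probe of the 28 subunits with several measured probes. Filled points are the brightest probe of a gene, open points its other probes. For Atp5g1 the filled point is at 0.73 and both open points are near -0.33.

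The 9 assembly factors among the members had a median of -0.39, below that of the subunits. They help to build the complexes and are no part of the finished enzymes. Ndufaf7, a methyltransferase that acts on a core subunit of complex I, read 490 on the 5/6Nx array and 837 on the sham array, a difference of -1.08 or 2.12-fold lower, and its other probe differed by -1.19. With normexp its difference was -0.99 and with spike-in scaling -0.72. Atp5s was dim, at 41.7 on the 5/6Nx array and 63.5 on the sham array, with a difference of -0.92 that was -0.50 with normexp. Atp5sl differed by -0.56, Ndufaf2 by -0.40 and Ndufaf4 by -0.39. Above 0 were Ndufaf3 at 0.43, Ndufaf6 at 0.23, Ndufaf5 at 0.14 and Ndufaf1 at 0.02. The other measured probes of Ndufaf6 were below 0, at -0.22 and -0.50, as was that of Ndufaf5, at -0.48. Ndufaf5 and Ndufaf1 also fell below 0 in at least 1 of the 5 scalings and background corrections. Cox7a2l, which joins complexes III and IV into supercomplexes, differed by -0.43. The pseudogene Atp5c1-ps, whose probe may also read the parent gene, differed by 0.14.

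Subunits of the same 4 complexes that mitochondrial DNA encodes were lower than the nuclear-encoded ones. The median difference was -0.10 over the 73 nuclear-encoded subunits and -1.62 over the 11 measured mitochondrial ones, a gap of 1.52 in log2 units. Scaling on the array median or the spike-ins shifts both medians alike and cannot change this gap. It ranged from 1.48 to 1.56 over the 13 alternatives, including the authors' value table. Of the 11 genes 8 were at least 2-fold lower, in each of the 13 alternatives, where 11% of all measured genes were. The lowest was ND4L, a membrane subunit of complex I, at 5374 on the 5/6Nx array and 17438 on the sham array, a difference of -2.01 or 4.02-fold lower. ND5, a proton-pumping subunit, differed by -2.00 and ND2, another, by -1.81. CYTB, the cytochrome b of complex III, read 23116 on the 5/6Nx array and 59505 on the sham array, a difference of -1.67. ATP8, a small subunit of complex V, differed by -1.62, as did ND4, and ND1 by -1.54. ND3 differed by -1.75, but the files place its probe on chromosome 1 (24619613 to 24619672) and not on mitochondrial DNA.

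The catalytic subunits of complex IV were less far apart. COX1, which holds the oxygen-reducing centre, read 63583 on the 5/6Nx array and 91832 on the sham array, a difference of -0.84 or 1.79-fold lower. COX2, which takes electrons from cytochrome c, read 148644 on the 5/6Nx array and 190543 on the sham array, a difference of -0.67 or 1.59-fold lower. Against them, ND6 was higher. It read 814 on the 5/6Nx array and 289 on the sham array, a difference of 1.18 or 2.27-fold higher. ND6 is the only protein gene that the mitochondrial DNA carries on its other strand, and the files place its probe on the minus strand. The 10 other genes ran from -2.01 to -0.67. Among the 36 nuclear-encoded subunits of complex I none was 2-fold apart, beside 23.2% of all measured genes.

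The probes of ND6, ND4L and COX2 are shown because they mark the 2 ends and the strand of this pattern. They lie on mitochondrial DNA at 13552 to 13611 (minus strand), 10114 to 10173 and 7619 to 7678 (plus strand) in mm9.
ND6 probe: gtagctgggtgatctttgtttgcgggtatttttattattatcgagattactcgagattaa
ND4L probe: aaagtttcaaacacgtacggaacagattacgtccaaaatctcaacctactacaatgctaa
COX2 probe: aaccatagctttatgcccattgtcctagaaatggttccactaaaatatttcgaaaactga

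A further 6 probes map to mitochondrial DNA under transcript names. Their differences ran from -2.04 to -0.06, and 4 of the 6 were at least 2-fold lower, where 11% of all measured genes were. At least 1 of the 4 rereads a gene counted above: the probe at 10111 to 10170 shares 57 bases with the ND4L probe. Overlap was checked between probes and not against the extent of the genes. Of the 6 probes the 2 that were not 2-fold lower differed by -0.27 and -0.06. They lie at 598 to 657 (plus strand) and 1155 to 1214 (minus strand), among the ribosomal RNA genes. Amounts of mitochondrial DNA and of mitochondrial RNA per genome were not measured.

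**Figure D4:**
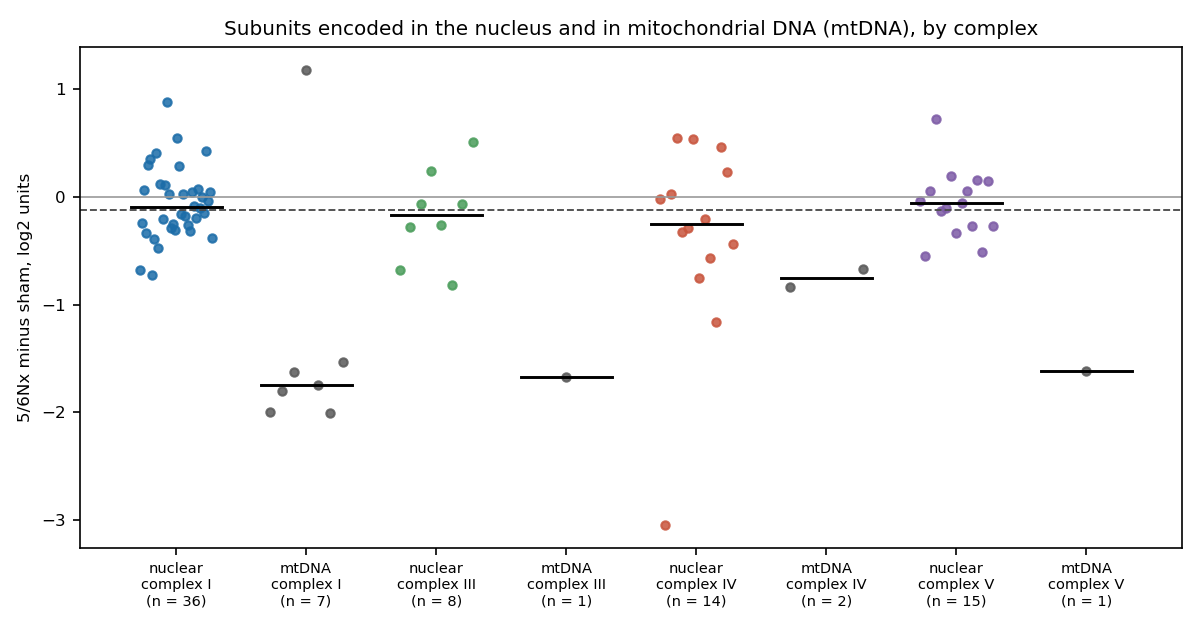
Difference between the 5/6Nx and the sham array, in log2 units on the vertical axis, for nuclear-encoded subunits (coloured points) and subunits encoded in mitochondrial DNA (grey points), by complex. Black bars are medians, the dashed line is the median of all measured genes. All grey points except ND6 at 1.18 lie between -2.01 and -0.67, while the nuclear-encoded points of complexes I, III and V lie between -0.82 and 0.88.

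**Figure D5:**
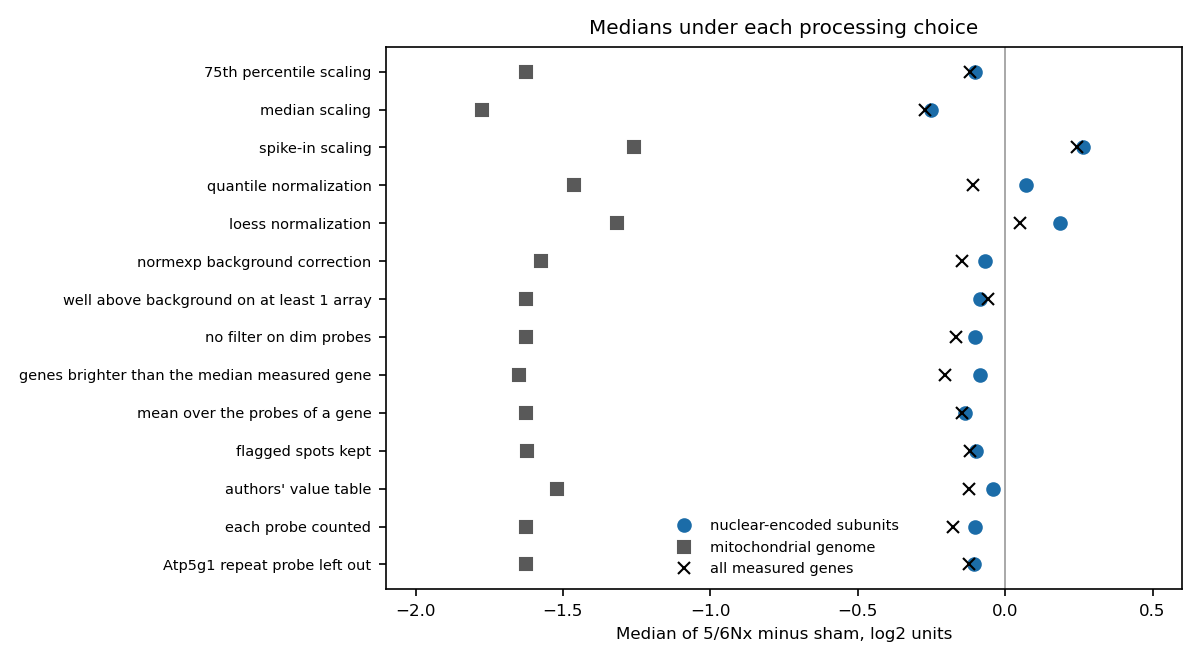
Medians of the difference between the 5/6Nx and the sham array, in log2 units on the horizontal axis, under each processing choice. Circles are the nuclear-encoded subunits, squares the genes of mitochondrial DNA and crosses all measured genes. The circles cross 0 with quantile, loess and spike-in scaling and stay near the crosses, while the squares lie between -1.77 and -1.26.

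Complex II, cytochrome c and cytochrome c1 are encoded in the nucleus and lie outside the name prefixes. The 4 subunits of complex II, which feeds electrons from succinate, had a median of -0.02, or 0.34 with spike-in scaling. None of the 4 was 2-fold apart, beside 23.2% of all measured genes. The iron-sulphur protein of complex II, Sdhb, read 25421 on the 5/6Nx array and 13614 on the sham array, a difference of 0.59. Cycs, the cytochrome c that carries electrons from complex III to complex IV, read 21208 on the 5/6Nx array and 7226 on the sham array. Its difference was 1.24 and that of its other probe 0.83. Cyc1, the cytochrome c1 and itself a subunit of complex III, differed by 0.19 and is not among the 8 counted above. These 3 stayed above 0 under all 5 scalings and background corrections.

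Of 30 further assembly factors, all measured, Cox18 was higher and Sco2 lower by at least 2-fold, where 12.2% and 11% of all measured genes were. The median of the 30 was -0.11, or 0.25 with spike-in scaling. Cox18, which inserts a part of COX2 into the membrane, read 1793 on the 5/6Nx array and 544.5 on the sham array, a difference of 1.41. Sco2, which delivers copper to COX2, read 672 on the 5/6Nx array and 1422 on the sham array, a difference of -1.39. Past 1.5-fold there were 5 of the 30 higher and 5 lower, beside 20.7% and 23.2% of all measured genes. Atp5md and Atp5mpl, 2 small ATP synthase subunits listed under other names in the files and added after their values had been seen, differed by 0.04 and -0.32.

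Promoters of these genes were read in the RefSeq table of GRCm38.p6, from 250 bases before to 50 bases after the start, and 59 of 69 subunit genes outside the tissue-restricted isoforms had an entry matched by symbol. The motif letters were searched on both strands. The NRF1 letters, GCGC, then any base and T, then GCGC, were found in 25.4% of these promoters, against 5.19% of 27025 promoters in the table. The ETS letters CCGGAAG were found in 23.7%, against 9.93%, and the YY1 letters AANATGGC in 28.8%, against 6.96%. The ESRRA letters TCAAGGTCA were found in 1.69%, against 0.47%. None of the 4 tissue-restricted isoforms with an entry held any of the 4 motifs in this window, and neither did 19 of the 59 other subunit genes (32.2%), Cox7a2 among them, or 80.2% of the table. This says nothing about binding of the factors. The motifs do not overlap in the promoters printed here.

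The promoters of Cox6a1, Ndufs4 and Cox7a1 are shown because they belong to a subunit near 0 and to the extremes, and they stand for no contrast between ubiquitous and tissue-restricted forms. Each is 300 bases, 5′ to 3′ on the strand of the gene, with motif letters in capitals. Cox6a1, a ubiquitous subunit that differed by -0.02, holds 2 NRF1 motifs and 1 ETS motif (chromosome 5, 115348909 to 115349208, minus strand). Ndufs4, at 0.88, holds 1 YY1 motif (chromosome 13, 114388045 to 114388344, minus strand). Cox7a1, at -3.05, holds none of the 4 (chromosome 7, 30183921 to 30184220, plus strand).
Cox6a1 promoter: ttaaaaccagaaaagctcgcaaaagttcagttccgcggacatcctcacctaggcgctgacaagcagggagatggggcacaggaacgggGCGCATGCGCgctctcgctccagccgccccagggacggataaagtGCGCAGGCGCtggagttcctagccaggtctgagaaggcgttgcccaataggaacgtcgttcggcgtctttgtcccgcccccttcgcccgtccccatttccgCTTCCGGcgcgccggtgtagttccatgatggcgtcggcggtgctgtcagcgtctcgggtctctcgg
Ndufs4 promoter: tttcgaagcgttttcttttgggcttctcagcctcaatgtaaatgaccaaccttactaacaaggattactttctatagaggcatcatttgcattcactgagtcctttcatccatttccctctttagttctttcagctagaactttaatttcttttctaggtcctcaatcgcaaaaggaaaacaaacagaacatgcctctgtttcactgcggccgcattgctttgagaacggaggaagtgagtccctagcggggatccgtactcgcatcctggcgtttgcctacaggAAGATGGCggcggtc
Cox7a1 promoter: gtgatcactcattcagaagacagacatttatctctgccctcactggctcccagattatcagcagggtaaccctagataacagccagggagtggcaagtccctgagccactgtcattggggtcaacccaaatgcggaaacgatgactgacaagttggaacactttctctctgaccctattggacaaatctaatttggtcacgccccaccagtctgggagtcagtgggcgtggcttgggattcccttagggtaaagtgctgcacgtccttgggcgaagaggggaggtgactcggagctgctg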

How the data were processed

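Splenic monocytes of 5/6Nx and sham-operated ICR mice were profiled on 1-colour Agilent arrays, 1 per group. Per the file headers, the deposited scanner files give a processed intensity on a linear scale, background-subtracted and detrended within the array and not scaled between arrays. The submitters' processing notes name Agilent Feature Extraction 9.5.1.1, and the file headers 10.7.1.1. The authors' value table gives intensity of the same arrays on a linear scale; how it was normalized: not given in the sources used here.

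From the deposited intensity, log2 values were taken and the 75th percentile of each array's non-control spots was subtracted, leaving out spots flagged as outliers (47 on the 5/6Nx array, 41 on the sham array, none of a member; 0 spots were saturated). Spots of a probe were averaged, and a gene took its brightest probe well above background on both arrays. Probes were matched to RefSeq (GRCm38.p6) by accession (32992), symbol (10224) or synonym (520), and 12867 stayed unnamed. Probe positions are the files' own, on mm9; exons and UTRs were not annotated. With 1 array per group no test was run. Counts use at least 2-fold and 1.5-fold, beside the share of all measured genes past the same fold. Complexes, isoforms, gene lists and the motifs were listed by hand. Genes named in full were those at least 1.5-fold apart, the 2 highest and 2 lowest of each complex, isoforms and their partners, genes measured on 1 array, genes with discordant probes, the Atp5g genes and the 2 largest of each list. The members and lists were chosen with earlier results of these data known. Alternatives were median, spike-in, quantile and loess scaling, normexp background correction (offset 50), 3 filters on dim probes, the mean over a gene's probes, flagged spots kept, each probe counted and the authors' value table. Added after seeing the data were the mitochondrial results and single genes under each alternative, and the removal of the Atp5g1 repeat probe. The medians of the complexes and the count of subunits 2-fold apart were tested on simulated data with the main scaling. In these data only members differed between the arrays, and the other steps were not tested in this way. Python 3.11.15, numpy 2.4.6, pandas 2.3.3, matplotlib 3.10.9, R 4.3.3 and limma 3.58.1 were used.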

Additional observations from a re-analysis of the deposited data

How the results depend on the processing

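With 1 array per group, neither animals nor labelling could be separated from the operation, and dim probes rest on the background correction. The 11 members at least 1.5-fold apart had the sign of their main value in every alternative in which they were measured, except Atp5g1, which was -0.32 without its repeat probe. The count of 8 mitochondrial genes at least 2-fold lower was the same in all 13 alternatives. The cause of the shifts below was not tested.

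Medians of all subunits, complexes I, III, IV and V and the mitochondrial genes, in that order, were -0.25, -0.25, -0.32, -0.40, -0.21 and -1.77 with median scaling. With spike-in scaling they were 0.26, 0.27, 0.20, 0.12, 0.31 and -1.26, with quantile normalization 0.0717, 0.0552, 0.0448, -0.17, 0.18 and -1.46, and with loess normalization 0.19, 0.17, 0.15, 0.0115, 0.26 and -1.31. In the authors' value table all subunits were at -0.0415, complexes I, III and V at -0.0179, -0.0568 and 0.0138, and the mitochondrial genes at -1.52. With each probe counted, complexes I and III were at -0.16 and -0.0730. Complex IV was at -0.11 both among bright genes alone and with a filter that asks for 1 array above background.

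Subunits at least 1.5-fold higher numbered 2 in the main values, 1 with median scaling or without the Atp5g1 repeat probe, 4 with each probe counted or with the looser filter, 6 in the authors' value table, 9 with quantile, 13 with loess and 14 with spike-in scaling. Those at least 1.5-fold lower numbered 7 in the main values, 12 with median scaling, 4 with quantile, and 2 with loess or spike-in scaling. Those at least 2-fold apart numbered 2 in the main values, 0 over bright genes, 1 with normexp and 4 with loess or the looser filter. No paired analysis was possible because each group has 1 array.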

Other observations

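Of 5 genes for the ATP synthase inhibitor and for carriers, 2 were at least 2-fold lower and the median was -0.79, beside 11% of all measured genes. Ucp2, an uncoupling protein of the inner membrane common in immune cells, read 1470 on the 5/6Nx array and 8189 on the sham array, a difference of -2.79, and its other probe differed by -2.97. Atpif1, which blocks the reverse reaction of ATP synthase, read 8532 on the 5/6Nx array and 24158 on the sham array, a difference of -1.81. The ADP/ATP carriers went both ways, with Slc25a4 at -0.79 and Slc25a5 at 0.32, and the phosphate carrier Slc25a3 was at -0.40. These 5 signs held under all 5 scalings and background corrections.

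Among 9 regulators of mitochondrial biogenesis, 8 were measured on both arrays, with a median of -0.14 that was 0.22 with spike-in scaling. The coactivator Ppargc1b read 969 on the 5/6Nx array and 247 on the sham array, a difference of 1.67, and its relative Ppargc1a had a signal above background in 5/6Nx alone, at 20.6. Of the factors that transcribe mitochondrial DNA, Tfb2m differed by -0.88, the RNA polymerase Polrmt by -0.57 and Tfam by 0.29. Nrf1 and Gabpa, factors known to bind promoters of subunit genes, differed by -0.27 and -0.29, and Esrra by 0.47. None of 11 genes of mitochondrial import and mass was 2-fold apart, beside 23.2% of all measured genes. Their median was -0.21, or 0.16 with spike-in scaling, and the import receptor Tomm20 was lowest at -0.81. Citrate synthase, Cs, differed by -0.42. The part of T cells and NK cells, whose markers had summed intensities of 29465 and 12908 on the 5/6Nx array and 1273 and 188.5 on the sham array, was not tested.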
